A study of Saccharomyces cerevisiae with 4 samples.

Results

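Genes for ribosome assembly and rRNA processing factors were read out in Saccharomyces cerevisiae exposed to celastrol or to heat. They were chosen by symbol: UTP, NOP, RRP, NOC, NSA, RIX, KRR, ENP, BMS, NUG or RLP followed by a number, and DBP2, DBP3, DBP6, DBP7, DBP8, DBP9 and DBP10. The rule found 73 of the 5477 genes with their own probe, each with 1 probe, and 70 of them were among the 5403 genes measured on all 4 arrays. Total RNA was compared on arrays with 2 colours, treated RNA in Cy5 against its own control RNA in Cy3. In 2 celastrol experiments, cells given 10 µM celastrol, a plant triterpenoid, for 1 h were set against cells given the solvent DMSO. In 2 heat shock experiments, cells held at 39 °C were set against cells held at 30 °C, each for 30 min. Every value below is a log2 ratio of treated over control unless another scale is named, so a value below 0 means less RNA than in the control. Which strain and medium were used is not stated here, and no array had its dyes swapped, so a probe's dye effect adds to both treatments. The design text speaks of 2 experiments per treatment without saying whether their cultures were separate, and the number of arrays limits the precision.

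Ribosome production starts in the nucleolus, where RNA polymerase I makes a long precursor that holds the rRNAs of both subunits. UTP complexes and the U3 snoRNP gather on the precursor as it is made and form the small-subunit processome, while another set of NOP, NOC, RRP, NSA and RLP proteins folds and matures the large subunit, with DBP helicases acting on both paths. The RNA exosome, to which several RRP genes belong, trims and degrades the spacers. In growing yeast the genes of these factors are transcribed as a group, which is known to be turned down in many stresses together with the ribosomal protein genes.

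After celastrol nearly all of these genes lay below their DMSO controls by a moderate amount, while after heat shock most lay near their controls and a few lay clearly lower. Of 72 genes measured on both celastrol arrays, 69 had ratios below 0 on both, a pattern that 49.9% of all genes showed. Their median was −0.53 on celastrol replicate 1 and −0.54 on celastrol replicate 2, against 0.07 on heat shock replicate 1 and −0.19 on heat shock replicate 2. The medians of all genes were −0.10 and −0.14 on the celastrol arrays and 0.03 and −0.05 on the heat shock arrays. Averaged over arrays, the median gene stood at 0.696 of the DMSO level after celastrol and at 0.972 of the level at 30 °C after heat shock, beside 0.925 and 1.003 for all genes. Below 0 on both heat shock arrays were 28 of 70 genes, where 36.7% of all genes were, and above 0 on both were 10, where 34.2% were. None of the 72 genes was above 0 on both celastrol arrays, where 28.9% of all genes were.

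**Figure D1:**
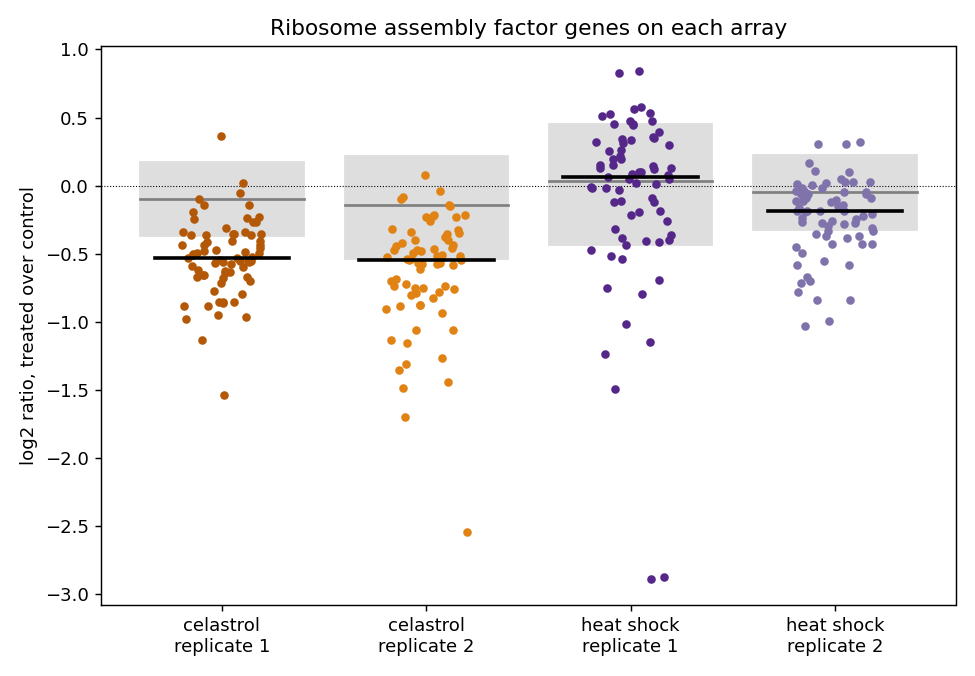
Log2 ratio of treated over control (vertical axis) of each assembly factor gene on each of the 4 arrays (points, with sideways scatter only to separate them). Black lines are medians of these genes, grey boxes span the middle 50% of all genes and grey lines are the medians of all genes. The celastrol medians of −0.53 and −0.54 lie at or below the lower edge of the grey box, whereas the heat shock medians of 0.07 and −0.19 lie inside it.

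The genes were also closer to each other than all genes were, on the arrays of both treatments. The SD over the 72 genes was 0.28 on celastrol replicate 1 and 0.43 on celastrol replicate 2, whereas all genes had an SD of 0.59 and 0.79 there. On the heat shock arrays it was 0.67 and 0.29 over 71 genes each, beside 0.92 and 0.59 for all genes. Genes for RNA polymerase I and III subunits had an SD of 0.38 on both celastrol arrays, and those for cytosolic ribosomal proteins 0.39 and 0.52. Across the 70 genes measured everywhere, the 2 celastrol arrays correlated with r = 0.52 and the 2 heat shock arrays with r = 0.54. Over all 5403 genes r was higher, 0.85 for celastrol and 0.66 for heat shock. All were computed across genes that share an array, so that no p is given. The median gap between replicates was 0.25 after celastrol and 0.30 after heat shock, near the 0.235 and 0.340 of all genes. The deposited celastrol ratios are centred slightly below 0. Centring each array on its median moves all genes up by 0.15 after celastrol and by 0.04 after heat shock, which puts the assembly factors' medians at −0.38 and −0.0002, with 62 genes below 0 on both celastrol arrays beside 36.7% of all genes.

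A test of single genes called few of them. Each gene's mean ratio was tested against 0 with limma over all 5403 genes, with p-values adjusted by Benjamini-Hochberg and a call at an adjusted p under 0.05. After celastrol 4 of 70 genes fell and 0 rose, where 2.68% of all genes were called lower and 3.85% higher. After heat shock 2 fell and 0 rose, where 4.79% of all genes were called lower and 4.28% higher, so both heat shock calls together lie near the background. At an unadjusted p under 0.05, 43 of the 70 were lower after celastrol, beside 19.8% of all genes, and 9 after heat shock, beside 16.7%. The celastrol count depended on how the spread was estimated. With the spread taken from the celastrol arrays alone, 33 of 72 genes fell at an adjusted p under 0.05, beside 17.9% of all genes, whereas without either celastrol array, or with the replicate number as a block, 0 were called. The block left 0.148% of all genes called lower, and leaving out a celastrol array left 0 genes of any kind.

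The 4 genes that fell after celastrol were DBP2, KRR1, NOP13 and NOP56. DBP2 (YNL112W), which encodes a DEAD-box RNA helicase with roles in rRNA processing and in mRNA metabolism, had ratios of −1.54 and −1.70 on the celastrol arrays and of −1.01 and −0.99 on the heat shock arrays. It was low on every array, with both celastrol values lower than both heat shock values. DBP2 fell to 0.326 of the DMSO level after celastrol (−1.62 ± 0.11, SD, n = 2; limma adjusted p = 0.0127) and to 0.499 of the level at 30 °C after heat shock (−1.004 ± 0.01, SD, n = 2; limma adjusted p = 0.0253). The heat shock call was lost under 5 of 12 other settings, which gave limma adjusted p-values between 0.0154 and 0.112, and the celastrol call under 3.

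NOP56 (YLR197W), a core protein of box C/D snoRNPs, fell in both treatments. Its ratios were −0.88 and −1.06 on the celastrol arrays and −1.24 and −1.03 on the heat shock arrays, so the treatments overlapped. It averaged −0.97 ± 0.13 after celastrol (SD, n = 2; limma adjusted p = 0.0371), a level of 0.510 of the control, and −1.13 ± 0.15 after heat shock (SD, n = 2; limma adjusted p = 0.0225), a level of 0.456. Its celastrol call held under 7 of 12 other settings and was among those lost with arrays centred on their medians (−0.83, limma adjusted p = 0.0506).

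KRR1 (YCL059C), for an RNA-binding protein of the small-subunit processome, had ratios of −0.95 and −1.36 on the celastrol arrays and of −0.69 and −0.70 on the heat shock arrays. It fell to 0.450 of the DMSO level after celastrol (−1.15 ± 0.29, SD, n = 2; limma adjusted p = 0.0330). Its heat shock mean of −0.69, equal on both arrays to within 0.01, was not called (limma adjusted p = 0.0730). NOP13 (YNL175C), for a nucleolar RNA-binding protein, had ratios of −0.86 and −1.31 after celastrol and of −0.76 and −0.84 after heat shock. It fell to 0.472 of the DMSO level (−1.08 ± 0.32, SD, n = 2; limma adjusted p = 0.0374) and stood at −0.80 ± 0.06 after heat shock (SD, n = 2; limma adjusted p = 0.0579), just outside the threshold. All 4 genes thus lay below 0 on 4 of 4 arrays, as 28 of the 70 genes and 27.4% of all genes did.

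**Figure D2:**
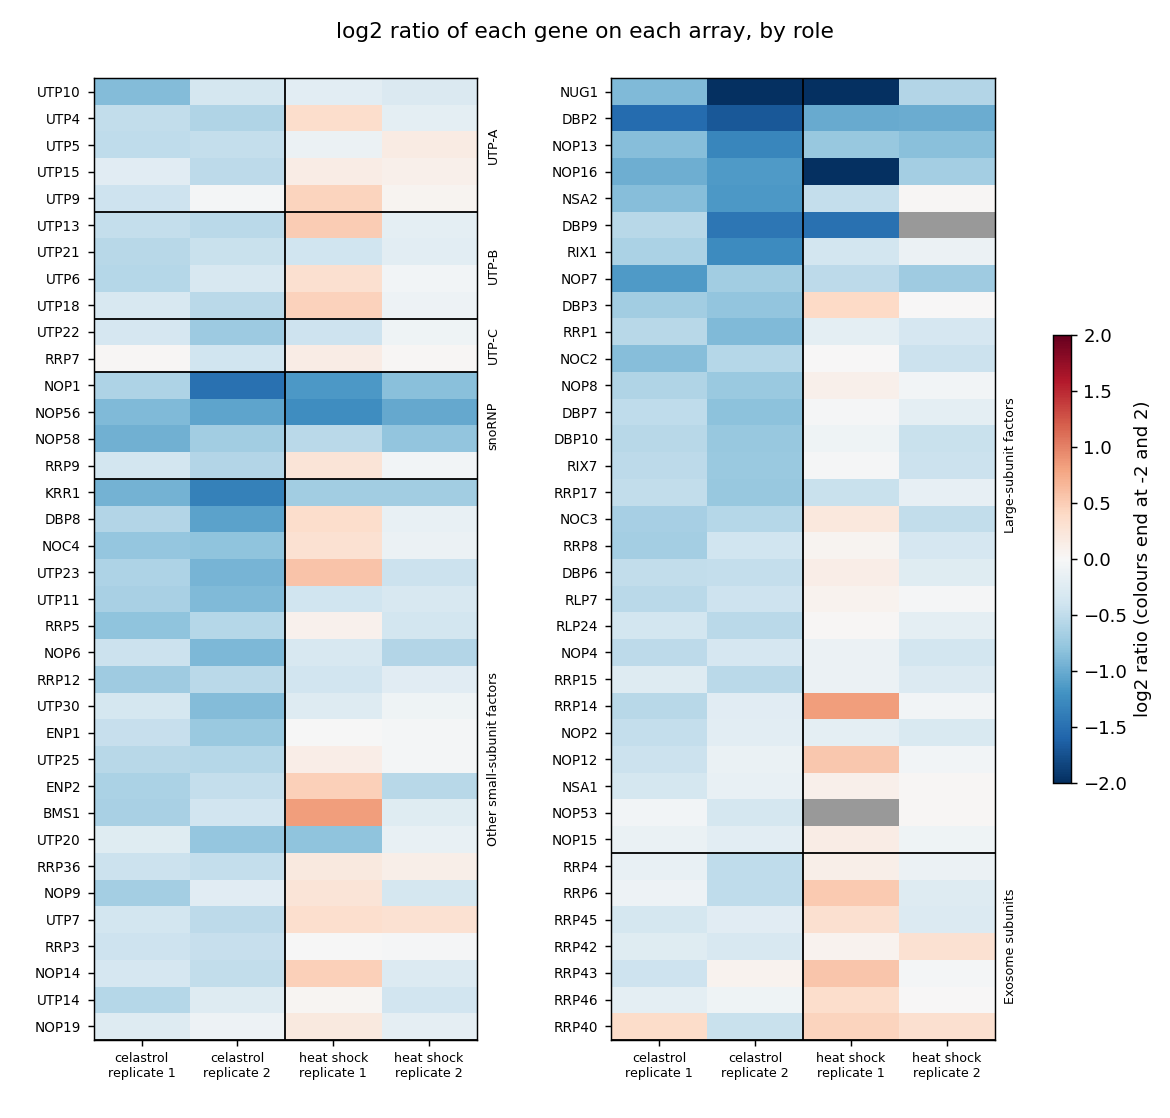
Log2 ratio of treated over control of each gene (rows, grouped by role and ordered by their celastrol mean) on each array (columns), with blue below and red above the control and colours ending at −2 and 2. Grey cells held an exact 0 and count as not measured. The celastrol columns are blue for nearly all genes, and dark heat shock cells are few, among them DBP2, DBP9, NOP1, NOP56, NOP16 and NUG1.

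In the small-subunit path, genes of the UTP complexes that bind the nascent precursor had means below 0 after celastrol. So had all 70 assembly factors measured everywhere, and 3318 of all 5403 genes. The UTP-A complex binds its leading end first and is also known as t-UTP for its tie to rDNA transcription. Its 5 measured genes with a symbol of the rule lay between −0.60 and −0.23 after celastrol and between −0.25 and 0.25 after heat shock, with 0 called. UTP10 was the lowest of them, at −0.86 and −0.35 on the celastrol arrays and −0.22 and −0.28 on the heat shock arrays. UTP9 was the highest, at −0.41 and −0.04 on the celastrol arrays and 0.44 and 0.05 on the heat shock arrays. For all 5 genes both celastrol values lay below both heat shock values, a pattern of 28.9% of all genes. NAN1, also of UTP-A but outside the symbol rule, lay lower, at −0.74 and −0.55 on the celastrol arrays and −0.59 and −0.26 on the heat shock arrays, and its treatments overlapped. UTP8, also of UTP-A, held an exact 0 on all 4 arrays and has no value here.

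The UTP-B complex, a scaffold that joins the precursor next, has 4 genes under the symbol rule. Their means ran between −0.51 for UTP13 and −0.43 for UTP18 after celastrol, and between −0.30 for UTP21 and 0.18 for UTP18 after heat shock. UTP13 had −0.47 and −0.55 on the celastrol arrays and 0.51 and −0.19 on the heat shock arrays, which disagree in sign. In these 4 genes both celastrol values lay below both heat shock values, as in 50 of all 70 assembly factors and 28.9% of all genes. Of the other UTP-B genes, PWP2 did not show this order, with −0.42 and −1.03 on the celastrol arrays and −0.98 and −0.40 on the heat shock arrays. DIP2 did, with −0.44 and −0.33 on the celastrol arrays and 0.37 and −0.11 on the heat shock arrays. In UTP-C, a small complex known to hold casein kinase subunits as well, UTP22 averaged −0.53 ± 0.27 after celastrol and −0.25 ± 0.23 after heat shock (SD, n = 2 each). Its partner RRP7 had 0.02 and −0.40 on the celastrol arrays and 0.15 and 0.03 on the heat shock arrays, one of 3 genes that were not below 0 on both celastrol arrays.

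Proteins of the box C/D snoRNPs, which methylate rRNA and include the U3 particle, had low medians in both treatments. Among the role groups of the symbol rule theirs were the lowest, −0.90 after celastrol and −0.83 after heat shock. NOP1, for the methyltransferase fibrillarin, had −0.62 and −1.49 on the celastrol arrays and −1.15 and −0.84 on the heat shock arrays. The treatments overlapped, and neither mean was called (−1.06 ± 0.61 and −0.99 ± 0.22, SD, n = 2 each; limma adjusted p = 0.0694 and 0.0752). NOP58, the partner of NOP56 in the same particle, had −0.96 and −0.70 on the celastrol arrays and −0.54 and −0.78 on the heat shock arrays, with limma adjusted p = 0.0542 and 0.0753. RRP9, the protein particular to U3, stood at −0.36 and −0.58 on the celastrol arrays and at 0.25 and −0.06 on the heat shock arrays. NOP1, NOP56 and NOP58 thus lay between −1.49 and −0.54 on every array. The other core protein of the particle, SNU13, carries no symbol of the rule and lay lower still on 3 arrays, with values given further on. Low values were not particular to box C/D. The H/ACA snoRNP genes CBF5, NHP2 and GAR1, outside the symbol rule, averaged −0.64, −0.65 and −0.89 after celastrol. After heat shock they averaged −0.61, −0.74 and −0.61, with none called by limma in either treatment.

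Among the 21 other small-subunit factors, all lay below 0 on both celastrol arrays, and 8 did on both heat shock arrays. Their median was −0.56 after celastrol and −0.03 after heat shock. KRR1 was the lowest in both treatments, and NOP19 the highest after celastrol (−0.26 and −0.10). The largest mean differences between treatments among them were those of DBP8, NOC4 and UTP23, followed by BMS1 (−0.81) and UTP7 (−0.76). DBP8, a helicase gene, had −0.59 and −1.06 on the celastrol arrays and 0.34 and −0.15 on the heat shock arrays. NOC4, whose protein pairs with the product of NOP14, had −0.78 and −0.80 on the celastrol arrays and 0.30 and −0.12 on the heat shock arrays. UTP23 had −0.62 and −0.93 on the celastrol arrays and 0.58 and −0.43 on the heat shock arrays. In DBP8, NOC4 and UTP23 both celastrol values lay below both heat shock values, although the 2 heat shock arrays disagreed in sign. This order held in 15 of the 21 genes and in 28.9% of all genes.

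BMS1, for a GTPase of the processome, had −0.65 and −0.38 on the celastrol arrays and 0.83 and −0.24 on the heat shock arrays, so its high heat shock mean of 0.29 ± 0.76 (SD, n = 2) rested on replicate 1. UTP7 was above 0 on both heat shock arrays (0.34 and 0.31) and below 0 on both celastrol arrays (−0.36 and −0.52). UTP20, a long scaffold protein, had −0.25 and −0.78 on the celastrol arrays and −0.80 and −0.14 on the heat shock arrays, with nearly equal means. The large RRP5, which acts on both subunits' paths, averaged −0.68 ± 0.16 after celastrol and −0.14 ± 0.32 after heat shock, and RRP12, an export factor, −0.63 ± 0.13 and −0.31 ± 0.12 (SD, n = 2 each).

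The 29 measured large-subunit factors all lay below 0 on both celastrol arrays, and 14 of the 27 measured everywhere did on both heat shock arrays. Their median was −0.63 after celastrol and −0.21 after heat shock. NUG1, for a nucleolar GTPase, had the lowest mean of the symbol rule's genes after celastrol, and NOP16 and NUG1 had the lowest after heat shock. The heat shock means of both, and the celastrol mean of NUG1, rested largely on single arrays. NUG1 had −0.88 and −2.54 on the celastrol arrays and −2.89 and −0.58 on the heat shock arrays. NOP16 had −0.98 and −1.14 on the celastrol arrays and −2.87 and −0.67 on the heat shock arrays. Neither was called in either treatment (limma adjusted p of 0.0958 to 0.231). The fit shares 1 spread between treatments, so the gap between the heat shock arrays also entered the celastrol tests of both genes. For NOP16 the SD was 0.11 after celastrol and 1.56 after heat shock, and its missed celastrol call is limited by this. Ratios of −2 or less made up 4.34% of gene values and 6.96% of the values of probes without an annotated gene on heat shock replicate 1, against 0.184% and 0% on heat shock replicate 2. They made up 2.10% and 4.59% on celastrol replicate 2, where NUG1 was at −2.54, against 0.110% and 0% on celastrol replicate 1. The part of such probes in the NUG1 and NOP16 values was not tested.

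NSA2, for a factor of late nuclear large-subunit particles, had −0.85 and −1.15 on the celastrol arrays and −0.47 and 0.02 on the heat shock arrays. RIX1, whose protein helps to remodel the particles before export, had −0.63 and −1.27 on the celastrol arrays and −0.36 and −0.11 on the heat shock arrays. NOP7, of the PeBoW complex, had −1.14 and −0.69 on the celastrol arrays and −0.52 and −0.71 on the heat shock arrays. These 3 averaged −1.004, −0.95 and −0.91 after celastrol and just missed the threshold there (limma adjusted p = 0.0504, 0.0634 and 0.0539). RLP7 and RLP24, which resemble ribosomal proteins and hold their places in early particles, averaged −0.48 ± 0.08 and −0.45 ± 0.13 after celastrol and 0.02 ± 0.06 and −0.09 ± 0.15 after heat shock (SD, n = 2 each). RRP14 had the highest heat shock mean of all, 0.39 ± 0.64 (SD, n = 2), from 0.84 and −0.06, while its celastrol arrays gave −0.55 and −0.22. NOP15 was the large-subunit factor nearest to 0 after celastrol among those measured everywhere (−0.14 and −0.21). NOP53 had an exact 0 on heat shock replicate 1, and its other ratios were −0.05 and −0.35 on the celastrol arrays and 0.03 on heat shock replicate 2.

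The 7 DBP helicases, placed on both paths, lay below 0 on both celastrol arrays without exception. Apart from DBP2, none of the 6 measured everywhere was called. DBP3 had −0.70 and −0.79 on the celastrol arrays and 0.39 and 0.005 on the heat shock arrays. DBP6, DBP7 and DBP10 averaged −0.48, −0.66 and −0.66 after celastrol and −0.06, −0.11 and −0.27 after heat shock. DBP9 held an exact 0 on heat shock replicate 2, and its other ratios were −0.55 and −1.45 on the celastrol arrays and −1.49 on heat shock replicate 1. In the 6 genes measured everywhere both celastrol values lay below both heat shock values, as in 50 of all 70 assembly factors and 28.9% of all genes.

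The exosome serves RNA decay in general, and its genes with RRP symbols stood nearest to their controls after celastrol. The 7 genes had a median of −0.28 after celastrol, with means from −0.33 for RRP4 to −0.04 for RRP40, and of 0.18 after heat shock, with all 7 means above 0. RRP40 had 0.36 and −0.44 on the celastrol arrays and 0.45 and 0.32 on the heat shock arrays. RRP43 had −0.41 and 0.08 on the celastrol arrays and 0.56 and −0.05 on the heat shock arrays, and RRP46 had −0.20 and −0.09 beside 0.35 and 0.01. None of the 7 was called in either treatment (smallest limma adjusted p = 0.273 after celastrol and 0.308 after heat shock). Core subunits with other symbols differed in sign after heat shock: MTR3, SKI6, DIS3 and CSL4 averaged −0.39, −0.35, −0.20 and −0.16 after celastrol and −0.22, −0.16, −0.14 and 0.22 after heat shock, with none called by limma (adjusted p of 0.205 and above). With RRP7, RRP40 and RRP43 made up the 3 genes that did not lie below 0 on both celastrol arrays.

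**Figure D3:**
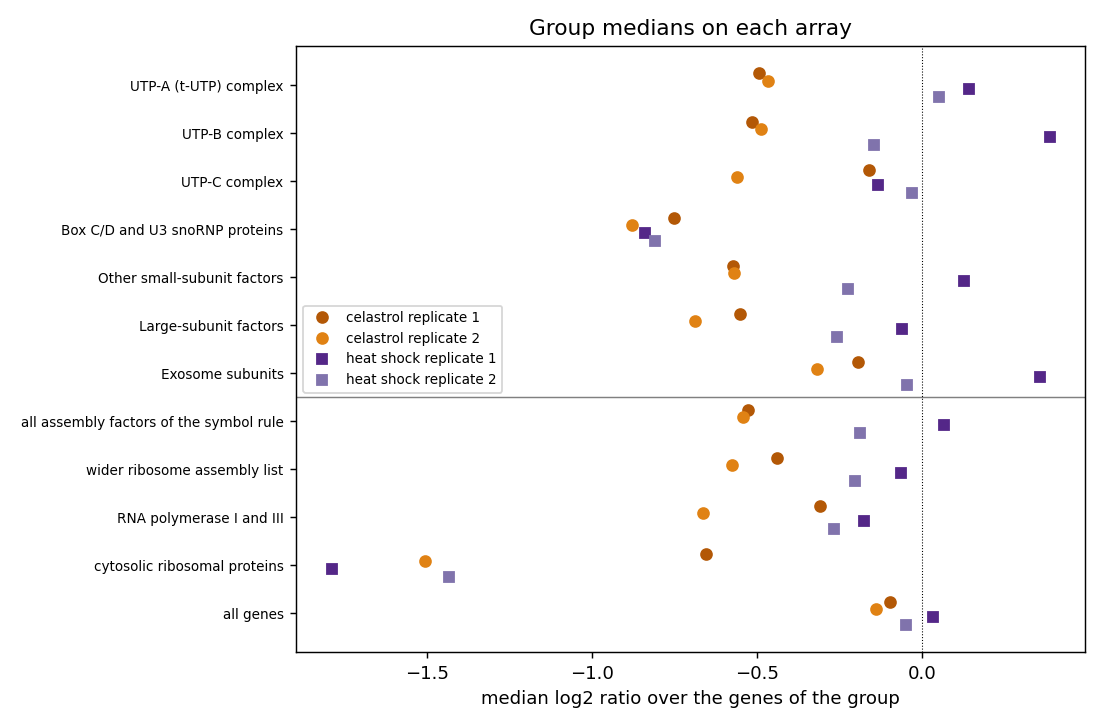
Median log2 ratio of treated over control (horizontal axis) of each role group, symbol rule genes alone, and, under the line, of the whole set, a wider list of assembly factors, RNA polymerase I and III subunits, cytosolic ribosomal proteins and all genes, on each array (circles, celastrol; squares, heat shock). The celastrol circles of most role groups lie left of the heat shock squares, the snoRNP symbols lie close together, and those of the ribosomal protein genes lie farthest left, celastrol replicate 1 excepted.

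The difference between treatments was tested in the same limma fit, as celastrol minus heat shock. The median difference was −0.43, with −0.09 for all genes, and 67 of 70 genes had a negative one. At an adjusted p under 0.05, 0 of the 70 were called, and 0.574% of all genes were called lower and 0.537% higher. At an unadjusted p under 0.05, 9 were lower and 0 higher, where 8.00% of all genes were lower. In 50 of the 70 genes both celastrol values lay below both heat shock values, beside 28.9% of all genes, and in 0 genes above them, beside 18.1%. With arrays centred on their medians the first count was 38, beside 21.4% of all genes.

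The largest negative difference was that of DBP3, at −0.94 with a 95% interval of −1.56 to −0.32 (limma adjusted p = 0.202). DBP8 followed at −0.93 (−1.69 to −0.16), NOC4 at −0.88 (−1.51 to −0.25), UTP23 at −0.85 (−1.84 to 0.14) and BMS1 at −0.81 (−1.84 to 0.22), with limma adjusted p-values of 0.232 to 0.456. At the other end stood NOP16 at 0.71 (−1.12 to 2.55), NOP56 at 0.16 (−0.42 to 0.74), NUG1 at 0.03 (−2.30 to 2.35), UTP20 at −0.04 (−0.90 to 0.82) and NOP1 at −0.06 (−0.97 to 0.84). These intervals are wide, and for NUG1 and NOP16 they leave room for differences of over 1 log2 unit either way. Without heat shock replicate 2, 5 genes were called for the difference, UTP23, BMS1, RRP14 and DBP3 lower and NOP16 higher, where 326 of 5436 genes were called lower and 211 higher.

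**Figure D4:**
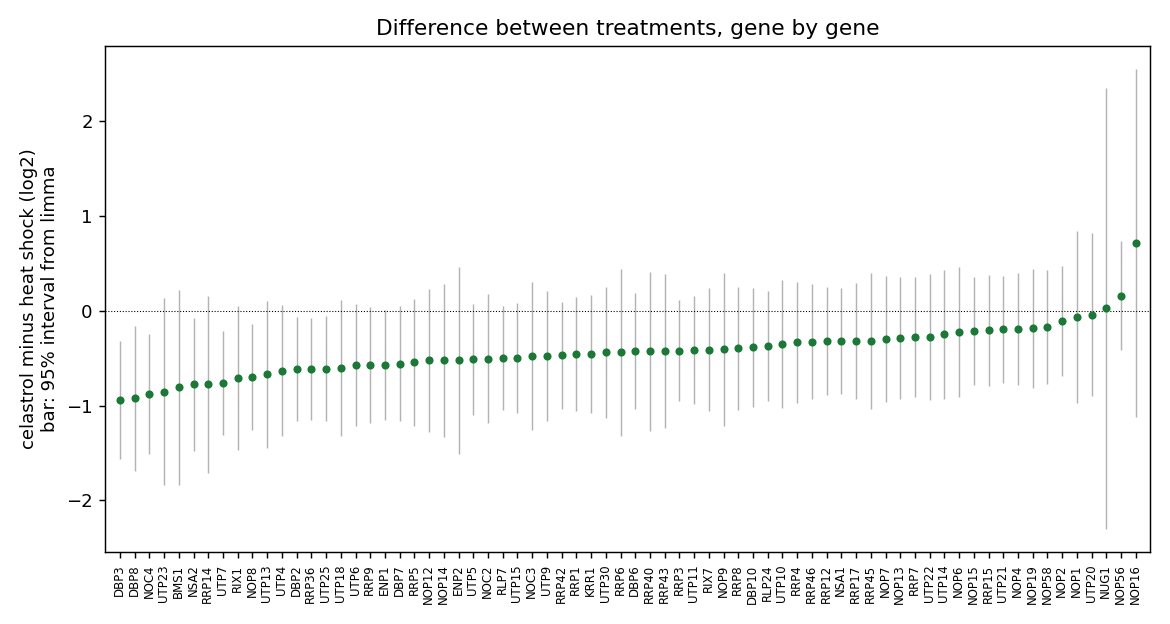
Difference of log2 ratios, celastrol minus heat shock (vertical axis), for each of the 70 genes measured on all arrays, ordered by size, with 95% intervals from limma. All but 3 points lie below 0, the interval of DBP3 ends at −0.32, and those of NUG1 and NOP16 are the widest.

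Across the 70 genes the means of the 2 treatments went together with r = 0.79, beside 0.58 over all 5403 genes. By ranks the values were closer, with a Spearman rho of 0.66 beside 0.59. Both are descriptions across genes whose probes share a dye orientation. Of the 70 genes, 5 were negative on all 4 arrays and averaged −1 or less over them: DBP2, NOP56, NOP1, NUG1 and NOP16. That is near the share of all genes, 357 of 5403, of which 99 were among 130 genes for cytosolic ribosomal proteins. The heat shock means of NUG1 and NOP16 rested largely on replicate 1.

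**Figure D5:**
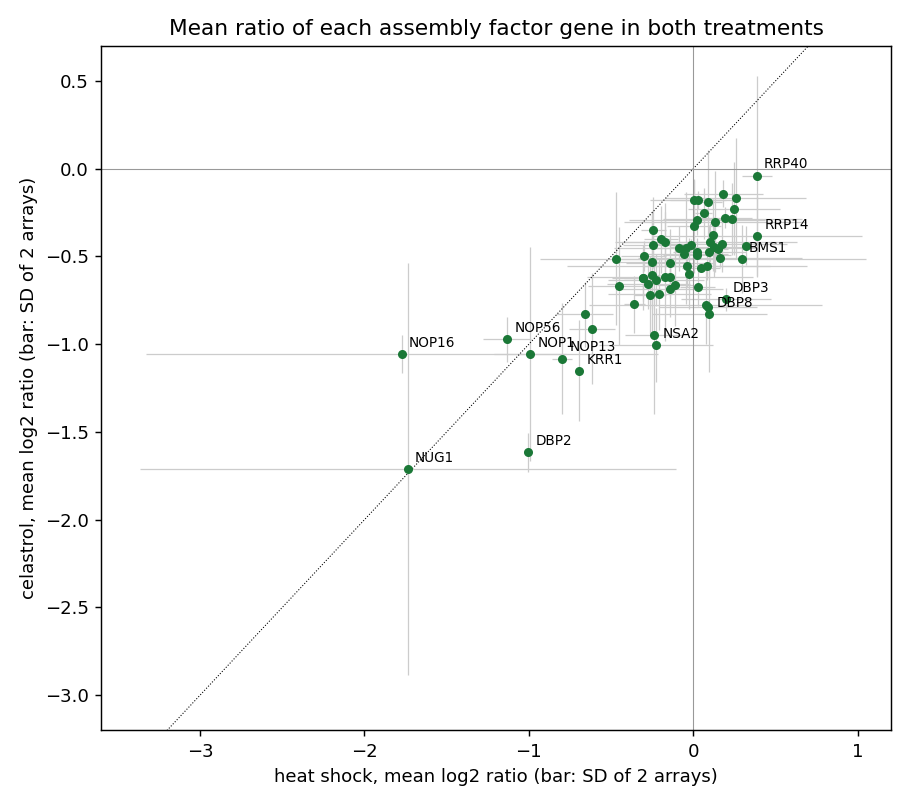
Mean log2 ratio after celastrol (vertical axis) against that after heat shock (horizontal axis) for the 70 genes measured on all arrays, with bars for the SD of 2 arrays and a dotted line where both are equal. Most points lie below the line, between −0.70 and −0.42 after celastrol for the middle 50% of genes, and NOP16, NUG1, DBP2, NOP56 and NOP1 reach to the lower left, NOP16 and NUG1 with long bars.

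Factors of the same pathway that carry other symbols were read from a list of 87, of which 82 were measured on all arrays. After celastrol 7 of them fell and 0 rose, where 2.68% of all genes were called lower and 3.85% higher. Below 0 on both celastrol arrays were 80 of 83, where 49.9% of all genes were. Their celastrol median of −0.52 matches the −0.52 of the genes above. After heat shock 0 of the 82 were called by limma, with 13 lower and 1 higher at an unadjusted p under 0.05, where 16.7% of all genes were lower, and 10 called lower with quantile normalization, where 11.0% of all genes were, and the median was −0.13. The 7 called genes were led by SNU13, for a box C/D protein shared with the spliceosome, with −3.04 and −2.57 on the celastrol arrays and −2.73 and −0.64 on the heat shock arrays (limma adjusted p = 0.0416 after celastrol). SDA1 (−1.13 ± 0.36), the helicase genes PRP43 (−1.11 ± 0.43) and FAL1 (−0.89 ± 0.15), MAK21, whose product binds that of NOC2 (−1.05 ± 0.04), SRP40 (−0.95 ± 0.28) and ECM16 (−0.80 ± 0.05; all SD, n = 2) were the others, with limma adjusted p-values of 0.0280 to 0.0480. MAK5 was lower than all of these but SNU13, at −1.51 ± 0.59 after celastrol (SD, n = 2), and was not called (limma adjusted p = 0.0533). FAL1 averaged −0.08 and MAK21 −0.42 after heat shock.

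Set beside other genes of the protein synthesis machinery, the assembly factors had medians of gene means of −0.52 after celastrol and −0.04 after heat shock, and the ribosomal protein genes −1.06 after celastrol and −1.57 after heat shock. Medians of the 131 cytosolic ribosomal protein genes were −0.66 and −1.51 on the celastrol arrays and −1.79 and −1.43 on the heat shock arrays. Of 130, limma called 18 lower after celastrol, beside 2.68% of all genes, and 85 lower after heat shock, beside 4.79%. Both celastrol values lay below both heat shock values in 1 of 130 ribosomal protein genes, beside 28.9% of all genes. They lay above in 42, beside 18.1%. The 18 measured genes for subunits of RNA polymerases I and III had medians of −0.31 and −0.66 on the celastrol arrays and of −0.18 and −0.27 on the heat shock arrays, with 0 called by limma in either treatment and 7 lower after celastrol and 4 lower after heat shock at an unadjusted p under 0.05, where 19.8% and 16.7% of all genes were lower. These are values side by side, and no test of one list against another was made.

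Gene length and gene order were set beside the ratios as a description. Gene length and mean ratio had a Spearman rho of −0.15 after celastrol and −0.10 after heat shock across the 70 genes. By the gene order of the RefSeq assembly, 8 of 73 assembly factor genes (11.0%) have another assembly factor as next neighbour, as 5.46% of all genes do. Neighbours could differ: RIX1 averaged −0.95 after celastrol beside UTP9 at −0.23, NSA2 −1.004 beside LCP5 at −0.33, and NOC4 −0.79 beside RRP15 at −0.40. They could also be close, as DBP8 at −0.83 after celastrol beside NMD3 at −0.70. NOP56, which averaged −0.97 after celastrol and −1.13 after heat shock, lies beside PWP1, which averaged −0.61 after celastrol and gave 1.13 and −0.52 on the heat shock arrays.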

How the data were processed

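The deposited table holds 1 value per probe and array for 6415 probes, used as log2 ratios of treated (Cy5) over control (Cy3). Per the labels' design text, the authors averaged duplicate values on a chip and set them relative to the chip's median signal. Array software, background correction and spot filter are not stated in the labels. Heat shock replicate 1 showed the log base: 249 pairs of its values differ by the log2 of a small whole-number ratio (within 2e-09) and 0 by natural or decimal logs. The same base was assumed for the other arrays, which hold 2 to 4 such pairs. Probe signal over background is unknown. The platform annotation names a single gene for 5619 probes, several for 76 and none for 720, and all of the 5619 matched the RefSeq table of assembly R64. Probes of a gene were averaged, and exact zeros (44 and 47 on the heat shock arrays, 7 and 4 on the celastrol arrays) were taken as missing.

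The 5403 genes measured on all arrays entered a fit in limma 3.58.1 (R 4.3.3) with 1 mean per treatment and 1 spread shared by both (2 residual and 3.12 prior degrees of freedom), and tested two-sided. The fit was run on simulated data with known celastrol changes, to check that it returned their size. The simulated arrays had no dye effect and no error in common, so those limits were not tested. Nothing says that replicates came from separate cultures, so p-values measure only the spread between these arrays, which may be technical. Members, lists and settings were chosen with earlier results of these data known. Called members, the 5 highest and lowest of each comparison, the extremes of each role and members with missing arrays were named, and others after their values were seen.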

Additional observations from a re-analysis of the deposited data

How the results depend on the processing

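The direction of the celastrol result held under every setting run, while the number of called genes did not. The median of the assembly factors after celastrol was −0.38 with arrays centred on their medians, and between −0.54 and −0.51 when 1 array was left out. Their called genes after celastrol numbered 19 with quantile normalization (11.2% of all genes called lower), 9 with a trend in the prior spread (2.42%), 33 with the celastrol arrays fitted alone (17.9%), and 0 to 34 when 1 array was left out (18.3% and 18.5% without a heat shock array). After heat shock they numbered 7 with quantile normalization (11.0% of all genes called lower), 1 with a trend (2.89%), 0 with the heat shock arrays fitted alone, and 0 to 8 with 1 array left out. The 8, of which 6 were lower and 2 higher, came without heat shock replicate 2, where 14.5% of all genes were called lower and 14.1% higher. For the difference between treatments they numbered 0 under all settings except leaving out arrays, which gave 0 to 5. With 1 heat shock array left out, the other alone decides which genes lay below 0 after heat shock, and 31 to 58 did, beside 47.8% of all genes without replicate 2 and 55.1% without replicate 1. In the wider list the calls after celastrol numbered 3 with centred arrays (1.63% of all genes called lower), and, beside the shares just given, 19 with quantile normalization, 37 with the celastrol arrays alone and 0 to 37 with 1 array left out. After heat shock they numbered 10 with quantile normalization and 0 to 14 with 1 array left out, and for the difference 0 to 8.

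With the replicate number as a block, 0 assembly factors were called after celastrol, after heat shock and for the difference, and 0 of the wider list. Nothing ties equal numbers across treatments, and deviations of same-numbered arrays correlated at −0.31. With the numbers crossed, a setting chosen after seeing the data, 12 were called after celastrol, 5 after heat shock and 0 for the difference, and in the wider list 15, 4 and 0, where 9.20% of all genes were called lower after celastrol and 9.79% after heat shock. Named genes that were not called changed sign in 6 of 300 cases after celastrol and 18 of 324 after heat shock, each case being 1 gene under 1 setting. Most settings, such as a block or a trend, leave a gene's mean ratio as it was and could not change its sign. The planned count of promoter words was not run. With 2 arrays per treatment and no signal over background, weak spots cannot be told from low ratios, and the cause of the changed counts was not tested beyond the fewer arrays in those fits.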
